A study of Rattus norvegicus with 8 samples.

Results

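The levels of 8 genes that mark fibroblasts of the meninges were followed in hippocampal RNA of 8 rats: *Slc6a13*, *Slc22a6*, *Slc47a1*, *Aldh1a2*, *Dcn*, *Lum*, *Ogn* and *Foxc1*. They were found by NCBI GeneID, all 8 of 8 were present among 22601 genes in every library, and the rule that picked them was a list of names, drawn up with earlier results of these data known. Levels are in FPKM, a fragment count divided by transcript length and by the mapped total of the library, so that levels can be set side by side between genes. All but *Ogn* were among the 15593 genes with a mean of at least 0.1 FPKM over the 8 libraries, which were tested between groups.

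The rats were wild-type Wistar animals of 180 to 220 g, whose age the labels do not give, and each gave 1 library. Pentylenetetrazole (PTZ) antagonises GABA-A receptors and provokes convulsions, and small doses given again and again leave a lasting readiness to convulse, called kindling. The Con. group (n = 3) received saline and then the solvent of Q808 by gavage. The PTZ group (n = 3) received 14 injections of PTZ at 35 mg/kg, 48 h apart over 28 days, with 60 mg/kg on the last day, and then the solvent. The Q808 group (n = 2) received the same PTZ doses and then 30 mg/kg Q808, a chemical with anti-convulsant activity, by daily gavage for 28 days. Rats of the PTZ and Q808 groups were given another sub-convulsive dose of PTZ on the day after the last gavage, before their tissue was taken. The model is therefore kindled rats after weeks of gavage and a recent PTZ dose, and the study had no Q808 group without PTZ. According to the methods of the study, the meninges were stripped from the brain before both hippocampi were dissected. The question asked here is how much of these fibroblast transcripts each library nevertheless held, and whether the amount differed between the groups.

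The meninges are the membranes around the brain, and fibroblasts of the pia and arachnoid build their collagen matrix and carry transporters that clear solutes between the cerebrospinal fluid and the blood. In development these cells are a source of retinoic acid for the underlying brain, and the forkhead factor encoded by *Foxc1* is required to form them. Related fibroblasts lie around larger vessels inside the brain and in the stroma of the choroid plexus, the fringe of tissue that secretes cerebrospinal fluid and adjoins the hippocampus. In bulk tissue, fewer cells of a type and less RNA per cell cannot be told apart.

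3 libraries stood apart from the others in their regional markers. The summed level of 5 striatum markers (*Drd1*, *Drd2*, *Adora2a*, *Rgs9* and *Gpr6*) was 497 FPKM in Con.-3, 228 FPKM in PTZ-3 and 248.9 FPKM in Q808-1, against 8.03 to 15.5 FPKM in the other 5 libraries. *Neurod6*, a gene of hippocampal pyramidal neurons, was at 7.29, 24.7 and 8.42 FPKM in Con.-3, PTZ-3 and Q808-1, below every one of the other 5 libraries (60.8 to 130.02 FPKM). Likewise, 6 markers of dentate granule cells summed to 33.5 to 120 FPKM in these 3 libraries and to 146 to 191 FPKM in the other 5. Among them *C1ql2* was at 3.23 to 5.09 FPKM in the 3 and at 50.6 to 96.7 FPKM in the other 5. *Calb1* was not lower in Con.-3 (87.7 FPKM) and PTZ-3 (111.9 FPKM), against 66.7 to 87.0 FPKM in the other 5. By most of these markers the hippocampal label was met less well by the 3. Each group holds 1 of the 3, so results are given with and without them. Whole fragment counts could be recovered from the deposited values, and the libraries held 12133627 to 16872140 fragments over the genes recovered.

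The promoters of 4 of the 8 genes were in the RefSeq table of the rat assembly GRCr8. These 4 are shown because no promoter entry was at hand for the other genes, and their starts differ widely in base composition. Each sequence is the 250 bases before the annotated start, written 5′ to 3′ on the strand of the gene, with capitals on motif matches on either strand. The motifs were the box written TATANA, the box written CCAAT, the Sp1-type box written GGGCGG, the core of forkhead sites, TGTTTA, and the core of retinoid receptor sites, AGGTCA.
Aldh1a2: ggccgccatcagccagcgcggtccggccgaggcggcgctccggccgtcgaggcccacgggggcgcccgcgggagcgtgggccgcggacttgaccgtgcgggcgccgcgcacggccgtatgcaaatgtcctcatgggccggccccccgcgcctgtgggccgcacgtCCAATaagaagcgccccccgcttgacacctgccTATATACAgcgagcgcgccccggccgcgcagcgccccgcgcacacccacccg
Foxc1: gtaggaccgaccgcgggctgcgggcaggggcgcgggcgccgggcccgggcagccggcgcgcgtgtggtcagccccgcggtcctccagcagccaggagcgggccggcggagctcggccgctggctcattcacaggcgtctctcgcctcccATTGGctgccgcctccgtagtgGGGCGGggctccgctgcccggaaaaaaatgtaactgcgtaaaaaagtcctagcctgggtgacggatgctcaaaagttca
Lum: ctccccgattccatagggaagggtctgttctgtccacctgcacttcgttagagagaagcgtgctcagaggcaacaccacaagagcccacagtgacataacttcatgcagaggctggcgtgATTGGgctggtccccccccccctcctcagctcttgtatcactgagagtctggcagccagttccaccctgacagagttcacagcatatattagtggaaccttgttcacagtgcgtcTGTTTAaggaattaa
Ogn: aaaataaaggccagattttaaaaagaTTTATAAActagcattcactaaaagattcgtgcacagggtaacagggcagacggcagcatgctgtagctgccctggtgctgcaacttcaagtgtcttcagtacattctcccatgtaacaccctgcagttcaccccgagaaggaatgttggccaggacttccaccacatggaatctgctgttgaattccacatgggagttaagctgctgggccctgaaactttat
The *Aldh1a2* sequence (chr8:80758391-80758640, plus strand) has a GC content of 77.2% with 41 CpG dinucleotides, and that of *Foxc1* (chr17:32844101-32844350, minus strand) has 70.0% with 29. The sequence of *Lum* (chr7:34245456-34245705, plus strand) has 52.8% with 5 CpG dinucleotides, and that of *Ogn* (chr17:15258996-15259245, minus strand) has 46.0% with 3. Over 33469 promoters of that length the median GC content was 51.2% and the median number of CpG dinucleotides was 5, so the transcription factor and the retinoic acid enzyme had CpG-rich starts and both matrix genes did not. TATANA, present in 24.2% of all promoters, matched in pairs that overlap each other at -52 and -50 in *Aldh1a2* and at -224 and -222 in *Ogn*, counting back from the annotated start. CCAAT, present in 34.0%, matched in *Aldh1a2* at -85, in *Lum* at -130 and in *Foxc1* at -101. GGGCGG (30.5%) matched in *Foxc1* at -79 and TGTTTA (12.1%) in *Lum* at -15. AGGTCA, which 14.1% of promoters hold, was not among the letters of the 4 windows. A match is a description of the letters and not a binding site.

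The 8 genes spanned more than 2 orders of magnitude in level. Decorin (*Dcn*) was highest, with a mean of 12.1 FPKM over the 8 libraries, followed by *Aldh1a2* at 3.12 FPKM and *Lum* at 2.52 FPKM. *Foxc1* (1.98 FPKM) and *Slc6a13* (1.95 FPKM) lay next, then *Slc22a6* (1.10 FPKM) and *Slc47a1* (0.639 FPKM). *Ogn*, at 0.0740 FPKM, was close to the limit of detection. Apart from the top and the bottom of this order, neighbouring genes differed by less than the spread between libraries, since single genes varied 2.54-fold (*Foxc1*) to 47.3-fold (*Slc47a1*) between their highest and lowest library.

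**Figure D1:**
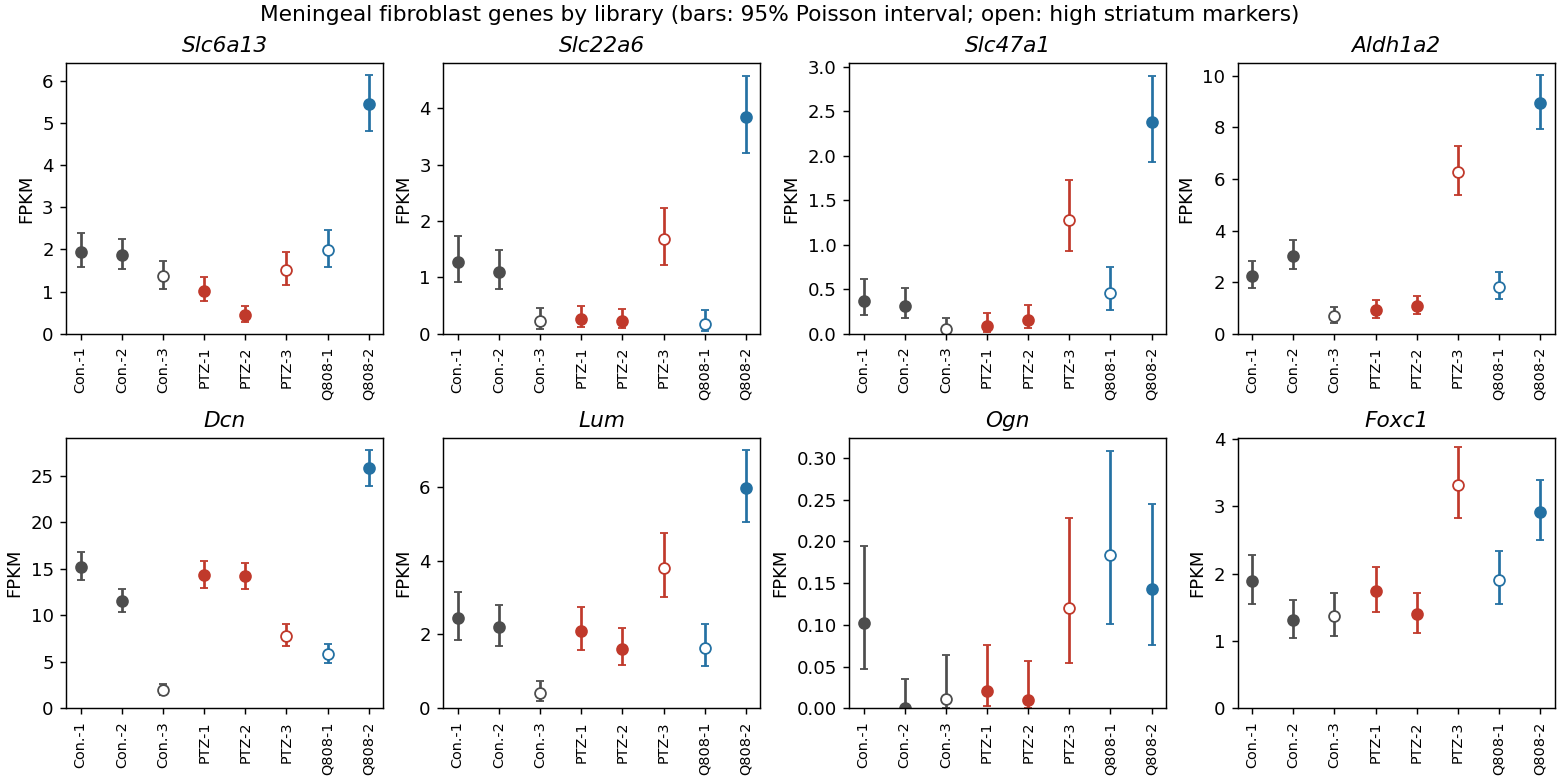
FPKM of the 8 genes (vertical axes, linear, each from 0) in each library (horizontal axes), coloured by group, with the 95% Poisson interval of the recovered fragments as bars and open circles for Con.-3, PTZ-3 and Q808-1. Q808-2 is the highest library for 6 genes, with *Dcn* at 25.8 FPKM, and Con.-3 is the lowest for 4.

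Among the transporters, *Slc6a13* encodes GAT2, which takes up GABA, taurine and betaine in meninges rather than at synapses. Its levels were 1.95, 1.87 and 1.37 FPKM in Con.-1, Con.-2 and Con.-3, 1.02, 0.443 and 1.51 FPKM in PTZ-1, PTZ-2 and PTZ-3, and 1.99 and 5.44 FPKM in Q808-1 and Q808-2. Both Q808 libraries lay above all others, while the Con. and PTZ groups overlapped through PTZ-3. Counting error separates Q808-2 (275 fragments, 95% Poisson interval 4.82 to 6.12 FPKM) from every other library, but the interval of Q808-1 (1.59 to 2.46 FPKM) overlaps those of the Con. libraries and of PTZ-3.

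*Slc22a6* encodes OAT1, an exchanger that takes up organic anions and many drugs. It was at 1.28, 1.10 and 0.220 FPKM in the Con. libraries, 0.260, 0.225 and 1.68 FPKM in the PTZ libraries, and 0.180 and 3.85 FPKM in the Q808 libraries. Each group thus held low and high libraries, and the Q808 group held both the lowest and the highest of all, 21.4-fold apart (5 and 128 fragments).

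*Slc47a1* encodes MATE1, a proton exchanger that extrudes organic cations. It was at 0.374, 0.315 and 0.0503 FPKM in the Con. libraries, 0.0922, 0.157 and 1.29 FPKM in the PTZ libraries, and 0.460 and 2.38 FPKM in the Q808 libraries. Both Q808 libraries exceeded the 3 Con. libraries, and PTZ-3 lay between the Q808 libraries. Low values rest on few fragments: 2 in Con.-3, 4 in PTZ-1 and 7 in PTZ-2, against 99 in Q808-2.

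*Aldh1a2* encodes retinaldehyde dehydrogenase 2, which makes retinoic acid. It was at 2.25, 3.03 and 0.695 FPKM in the Con. libraries, 0.926, 1.07 and 6.27 FPKM in the PTZ libraries, and 1.81 and 8.93 FPKM in the Q808 libraries. PTZ-3 and Q808-2 stood above the others, and the 3 groups overlapped. Within the PTZ group, PTZ-3 was 6.28 times the mean of PTZ-1 and PTZ-2.

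*Dcn*, *Lum* and *Ogn* encode small leucine-rich proteoglycans, matrix proteins that bind collagen fibrils and regulate their assembly. Decorin transcript was at 15.2, 11.6 and 1.97 FPKM in the Con. libraries, 14.3, 14.2 and 7.81 FPKM in the PTZ libraries, and 5.83 and 25.8 FPKM in the Q808 libraries. Con.-3, PTZ-3 and Q808-1 were the 3 lowest libraries for *Dcn*, each the lowest of its group, and *Dcn* was the only one of the 8 genes for which PTZ-3 was below both other PTZ libraries.

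Lumican (*Lum*) was at 2.44, 2.19 and 0.410 FPKM in the Con. libraries, 2.10, 1.61 and 3.81 FPKM in the PTZ libraries, and 1.64 and 5.96 FPKM in the Q808 libraries. The groups overlapped, with Con.-3 (10 fragments) below every other library. Osteoglycin (*Ogn*) was at 0.103, 0 and 0.0115 FPKM in the Con. libraries, 0.0211, 0.0103 and 0.120 FPKM in the PTZ libraries, and 0.184 and 0.143 FPKM in the Q808 libraries. These values come from 9, 0, 1, 2, 1, 9, 14 and 13 fragments in that order, and the 0 in Con.-2 has a 95% Poisson upper limit of 0.0354 FPKM. Both Q808 libraries were above the others for *Ogn*, but their Poisson intervals (0.101 to 0.309 and 0.0760 to 0.245 FPKM) overlap those of Con.-1 and PTZ-3, so a difference from these was not detectable at this depth.

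*Foxc1* was the steadiest of the 8 genes. It was at 1.89, 1.31 and 1.37 FPKM in the Con. libraries, 1.74, 1.40 and 3.32 FPKM in the PTZ libraries, and 1.91 and 2.92 FPKM in the Q808 libraries. PTZ-3 was highest and Q808-2 next, and Q808-1 (94 fragments) exceeded Con.-1 (107 fragments) by less than the counting interval of either. The Con. and Q808 libraries did not overlap, but only by that margin.

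The comparison of PTZ with Con. asks how kindled rats, given a last PTZ dose before their tissue was taken, differed from rats without PTZ. Genes count as called where limma's test on log2(FPKM + 0.1) gave an unadjusted p under 0.05 together with more than a 1.5-fold change, and 2.53% of all genes tested were called in this comparison. None of the 7 genes tested was called, and none of the 7 had an unadjusted p under 0.05, against 589 (3.78%) of all genes. No gene of the 15593 had an adjusted p under 0.05, and the added fit by voom on recovered fragments also called 0 of the 7. *Slc6a13* came closest, with a log2 difference of -0.86 ± 0.44 (SE, unadjusted limma p of 0.0896, adjusted p = 0.999). The other 6 log2 differences ran from -0.45 ± 0.83 for *Slc22a6* to 0.77 ± 0.66 for *Lum*. The median over the 7 genes was 0.40 and that over all genes was -0.04, with 5 of 7 above 0 against 43% of all genes.

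Leaving out Con.-3, PTZ-3 and Q808-1 changed this comparison for the transporters and the retinoic acid enzyme. With Con.-1 and Con.-2 against PTZ-1 and PTZ-2, 4 of the 7 genes were called and all 4 were lower in PTZ, where 5.71% of all genes were called lower and 9.81% called in all. *Slc22a6* fell by 1.91 on the log2 scale (unadjusted limma p of 0.000862, adjusted p = 0.0654), *Slc6a13* by 1.36 (adjusted p = 0.181), *Aldh1a2* by 1.31 (adjusted p = 0.106) and *Slc47a1* by 0.996 (adjusted p = 0.230). *Lum* (-0.31), *Dcn* (0.10) and *Foxc1* (-0.01) were not called, so the matrix genes and the transcription factor stayed closer to 0 than the transporters. Between the left-out libraries of this comparison the differences were above 0. PTZ-3 exceeded Con.-3 for 8 of 8 genes (59.7% of all genes did so), by 0.14 for *Slc6a13* and by 1.22 to 3.20 on the log2 scale for the other 6 tested genes. 1 library a group allows no test there.

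**Figure D2:**
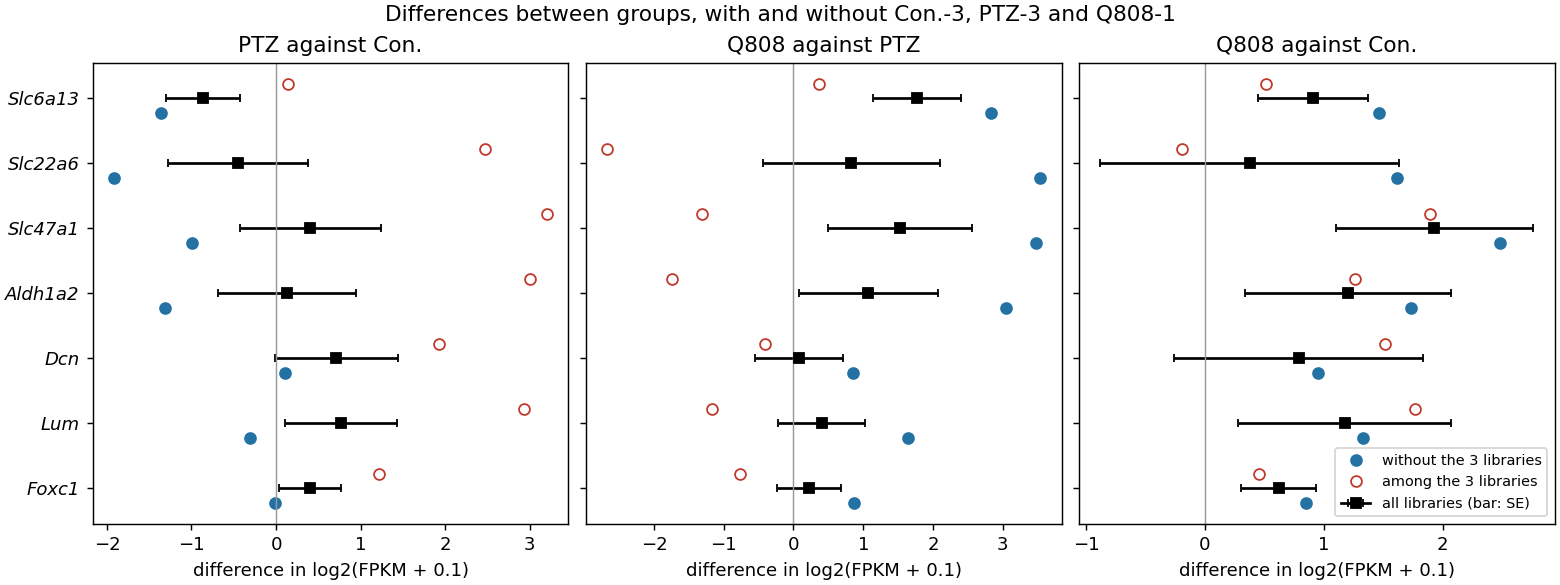
Difference in log2(FPKM + 0.1) (horizontal axes) for the 7 tested genes in the 3 comparisons: all libraries (squares, bars are the SE of limma), without Con.-3, PTZ-3 and Q808-1 (filled circles) and among these 3 libraries, 1 per group (open circles). In PTZ against Con. the filled circles of *Slc22a6* (-1.91) and *Slc47a1* (-0.996) lie left of 0 and the open ones (2.47 and 3.20) right of it.

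The comparison of Q808 with PTZ asks what the compound changed in kindled rats. *Slc6a13* was the only one of the 7 genes called, where 1.36% of all genes were called higher and 1.92% called in all. It rose 3.42-fold, a log2 difference of 1.77 ± 0.63 (SE, unadjusted limma p of 0.0289, adjusted p = 0.952), and both Q808 libraries were above all 3 PTZ libraries, as for 10.6% of all genes. This call was lost without PTZ-2, without Q808-2 and when every gene with any value above 0 was fitted, with log2 differences of 1.34, 1.07 and 1.77. *Slc47a1* had a log2 difference of 1.53 ± 1.04, *Aldh1a2* of 1.07 ± 0.99 and *Slc22a6* of 0.83 ± 1.27, and these 3 were not called. *Lum* (0.41), *Foxc1* (0.22) and *Dcn* (0.07) had smaller differences, and the sign for *Dcn* and for *Foxc1* turned under median ratio scaling and quantile normalization, respectively (-0.02 each). The median over the 7 genes was 0.83 against 0.10 over all genes, and 7 of 7 were above 0, as were 61.7% of all genes.

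Without the 3 libraries, Q808-2 alone stood against PTZ-1 and PTZ-2, and limma then takes the lone library to vary like the others. 6 of 7 genes were called and all 6 were higher, where 7.06% of all genes were called higher. The log2 differences were 3.53 for *Slc22a6*, 3.48 for *Slc47a1*, 3.04 for *Aldh1a2*, 2.83 for *Slc6a13*, 1.64 for *Lum* and 0.85 for *Dcn*, with adjusted p from 0.164 to 0.295. *Foxc1*, at 0.86, had a limma p of 0.0522. Among the left-out libraries, Q808-1 was above PTZ-3 only for *Slc6a13* (0.37) and *Ogn* (0.37), and it was below PTZ-3 by 2.67 on the log2 scale for *Slc22a6*, by 1.74 for *Aldh1a2* and by 0.41 to 1.31 for the other 4.

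In Q808 against Con. none of the 7 genes was called, where 3.46% of all genes were. None of the 7 had an unadjusted p under 0.05, while 667 (4.28%) of all genes did, 1 gene (0.00641%) passed an adjusted p of 0.05, and voom called 0 of the 7. *Slc6a13* (0.91 ± 0.46 on the log2 scale), *Foxc1* (0.62 ± 0.31) and *Slc47a1* (1.93 ± 0.83) were higher in both Q808 libraries than in any Con. library, which 13.3% of all genes were. Their limma p-values were 0.101, 0.0991 and 0.0625, with an adjusted p of 0.901 for each. The median over the 7 genes was 0.91 against 0.04 over all genes, and 7 of 7 differences were above 0, as for 55.3% of all genes. With Q808-2 against Con.-1 and Con.-2 only, 6 of 7 were called higher (3.91% of all genes), from 0.95 for *Dcn* to 2.48 for *Slc47a1*, with adjusted p from 0.550 to 0.723, and *Foxc1* (0.86) was not. Q808-1 exceeded Con.-3 for all but *Slc22a6* (-0.19), by up to 1.90 on the log2 scale for *Slc47a1*. With the mean of the striatum markers as a covariate, 5 of 7 were called higher (5.84% of all genes): *Slc47a1* (1.96), *Aldh1a2* (1.24), *Lum* (1.21), *Slc6a13* (0.93) and *Dcn* (0.83). The 3 comparisons share libraries, so their values are not independent of each other.

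Across the 8 libraries the genes moved as a loose group. All 28 pairwise Pearson correlations of log2(FPKM + 0.1) were above 0, with a median of 0.715. The highest was 0.968 between *Aldh1a2* and *Slc47a1*, followed by 0.913 between *Slc22a6* and *Aldh1a2*, and the lowest were 0.170 between *Ogn* and *Dcn* and 0.228 between *Slc6a13* and *Dcn*. The points share their libraries and depth, so these are descriptions over n = 8. Relative to each gene's mean, the 8 genes averaged 0.29, 0.03 and -1.25 on the log2 scale in the Con. libraries, -0.51, -0.69 and 0.74 in the PTZ libraries, and -0.18 and 1.56 in the Q808 libraries. Each of the 3 groups thus held libraries on both sides of the gene means. Q808-2 was the highest of the 8 libraries for 6 genes, where it was so for 10.1% of all genes tested. Among the 5 libraries with low striatum markers, Q808-2 was above both Con. libraries and both of these above both PTZ libraries for *Slc6a13*, *Slc22a6*, *Aldh1a2*, *Lum* and *Slc47a1*, an order held by 11.9% of all genes.

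The genes most like the mean of the 8, among 12563 genes with a mean of at least 1 FPKM, were *Gstm2* (Pearson r = 0.981 over 8 libraries), *Rusf1* (0.975), *Col1a1* (0.975), *Krt8* (0.950), *Vps33b* (0.950), *Spata7* (0.949), *Islr* (0.946), *Mydgf* (0.946), *Bmp7* (0.944) and *Mreg* (0.944). *Col1a1* encodes a chain of type I collagen, and its levels were 2.23, 2.41 and 0.766 FPKM in the Con. libraries, 1.52, 1.12 and 5.86 FPKM in the PTZ libraries, and 2.54 and 9.28 FPKM in the Q808 libraries. It was also the gene most like *Slc47a1* (0.980) and *Aldh1a2* (0.971) taken singly. *Slc6a13* was most like *Enpp2* (0.982), which encodes autotaxin, and *Slc22a6* most like *Prr32* (0.966). For *Dcn* it was *Ctsb* (0.988), for *Lum* *Naxd* (0.982), for *Ogn* *Aup1* (0.976) and for *Foxc1* *Fam229b* (0.969).

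Other fibroblast genes were counted beside the share of all genes called higher, which was 1.69% in PTZ against Con., 1.36% in Q808 against PTZ and 3.07% in Q808 against Con. Of 35 tested collagens, matrix proteins and further fibroblast genes, 2 were called higher in PTZ against Con., *Fn1* and *Dpp4*. *Fn1*, which encodes fibronectin, was at 0.85 ± 0.16 (unadjusted limma p of 0.00115, adjusted p = 0.999). *Dpp4*, a membrane peptidase, was at 1.24 ± 0.51 (unadjusted limma p of 0.0445, adjusted p = 0.999), with a mean of 0.359 FPKM and overlapping groups. The median of the 35 was 0.13. In Q808 against PTZ 4 of 35 were called higher, *Ptgds* (1.63 ± 0.53), which makes prostaglandin D2, *Slc13a3* (1.37 ± 0.39), a dicarboxylate transporter, and the collagen genes *Col6a2* (0.95 ± 0.38) and *Col5a2* (0.65 ± 0.27). The median was then 0.65 and 31 of 35 were above 0. In Q808 against Con. 5 of 35 were called higher, among them *Fn1* (1.23 ± 0.18), *Mgp* (1.19 ± 0.21), which inhibits calcification, *Slc13a3* (0.95 ± 0.21) and *Pdgfra* (0.79 ± 0.16), a growth factor receptor, and the median was 0.78. No gene of the list was called lower in any of the 3 comparisons.

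Relatives of the 8 genes were counted by role, to be read against the shares of all genes called higher just given. Of 6 other small leucine-rich proteoglycans tested, *Bgn* (biglycan) was called higher in Q808 against Con. (0.90 ± 0.16), and 0 were called in the other comparisons. The medians were 0.01 for PTZ over Con. and 0.61 for Q808 over PTZ. Of 16 other retinoid genes, *Dhrs3*, which reduces retinaldehyde, rose in Q808 against PTZ (0.68 ± 0.19). *Cyp26a1*, which degrades retinoic acid, rose in Q808 against Con. (1.12 ± 0.39) at a mean of 0.328 FPKM, and 0 were called in PTZ against Con. Of 10 other transporters of the same families, *Slc6a12*, the betaine and GABA transporter, rose in Q808 against PTZ (1.37 ± 0.55) at a mean of 0.140 FPKM, and *Slc22a8*, which encodes the anion transporter OAT3, rose in Q808 against Con. (0.90 ± 0.26). Of 14 other mesenchymal transcription factors, the forkhead genes *Foxd1* (1.41 ± 0.55) and *Foxf1* (0.85 ± 0.29) rose in Q808 against Con., at means of 0.513 and 0.925 FPKM. In the other comparisons 0 of these factors were called. None of these genes had an adjusted p of limma under 0.900.

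**Figure D3:**
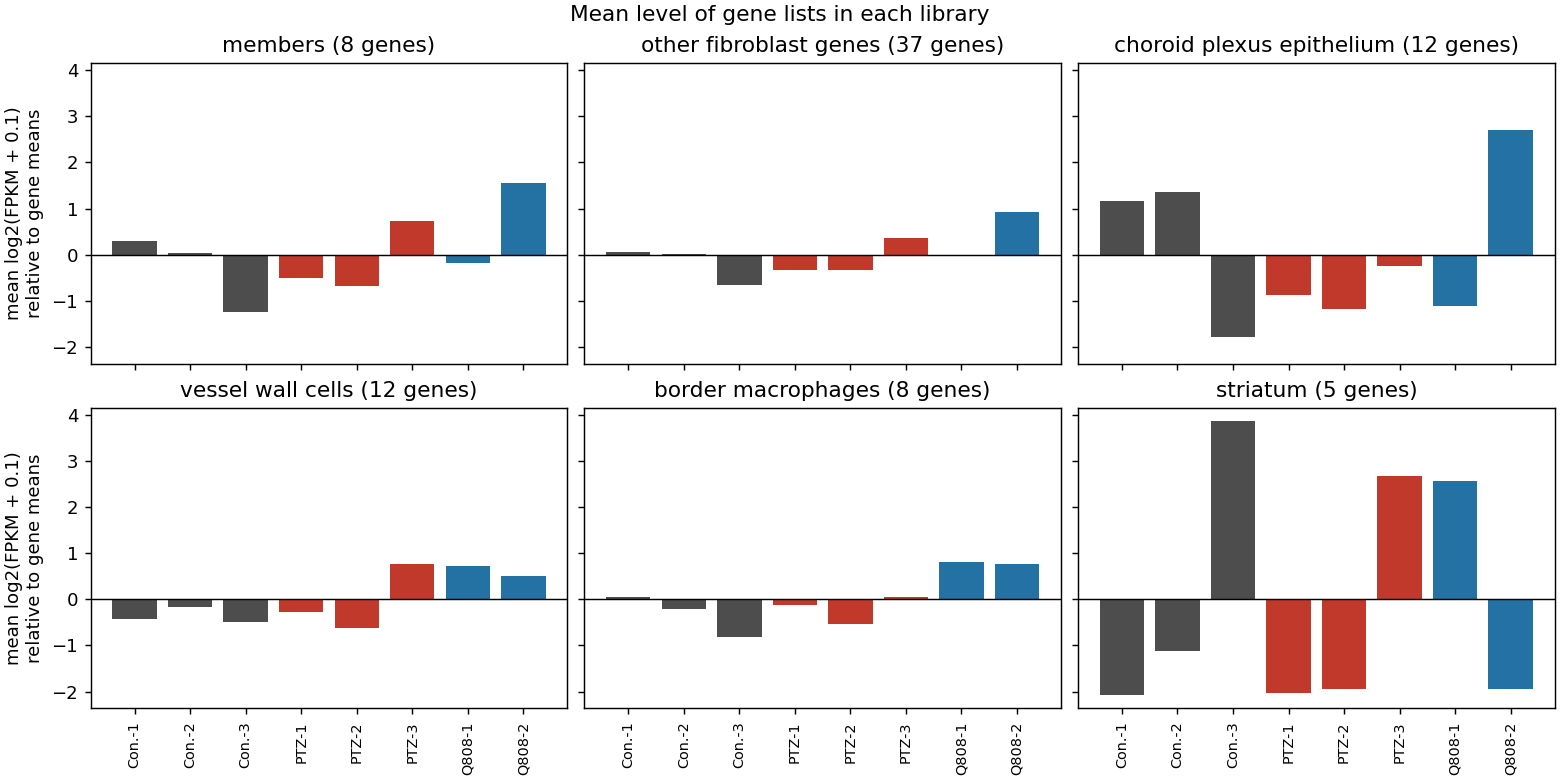
Mean log2(FPKM + 0.1) of 6 gene lists relative to each gene's mean over the 8 libraries (vertical axes) in each library (horizontal axes), with bars coloured by group. The 8 genes ("members") and the other fibroblast genes are highest in Q808-2 (1.56 and 0.92), where the choroid plexus list is highest too (2.70), while the striatum list is high in Con.-3, PTZ-3 and Q808-1.

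Markers of neighbouring tissues also differed between libraries, in part in the pattern of the 8 genes and in part not. 12 markers of choroid plexus epithelium summed to 2561, 2535 and 94.0 FPKM in the Con. libraries, 412, 281 and 498 FPKM in the PTZ libraries, and 168 and 6511 FPKM in the Q808 libraries. Most of this sum was *Ttr*, which encodes transthyretin, and *Otx2*, a defining factor of that epithelium, was listed at 0 in every library. The order Q808-2, Con., PTZ held for this sum in the 5 libraries, as for the 5 genes above. PTZ-3 was the highest PTZ library for this sum, as for 7 of the 8 genes. It was below both Con.-1 and Con.-2 here, which among the 8 genes held only for *Slc6a13* and *Dcn*. The counts of called markers here stand beside 1.69%, 1.36% and 3.07% of all genes called higher. These shares are for PTZ over Con., Q808 over PTZ and Q808 over Con. Of 11 of the choroid plexus markers tested, 1 (*Kcne2*, 2.10 ± 0.76) was called higher in Q808 against PTZ and 0 in the other comparisons. 12 markers of vessel wall cells summed to 83.4 to 101 FPKM in the Con. libraries, 86.6, 71.5 and 184 FPKM in the PTZ libraries, and 195 and 164 FPKM in Q808-1 and Q808-2. PTZ-3 was the high PTZ library here as for most of the 8 genes. The sum was higher in Q808-1 than in Q808-2, unlike 7 of the 8, and *Rgs5* gave 83.2 and 39.2 FPKM of it. *Pdgfrb*, *Kcnj8*, *Abcc9*, *Anpep*, *Notch3* and *Higd1b* were also higher in Q808-1. *Acta2*, *Myh11*, *Tagln*, *Cnn1* and *Vtn* were higher in Q808-2, as 7 of the 8 genes were. Of the 12, 1 was called higher between PTZ and Con., 1 between Q808 and PTZ, and 6 between Q808 and Con. 8 markers of border macrophages, which live in the meninges and around vessels, summed to 3.25 to 4.94 FPKM in the Con. libraries, 3.56 to 5.84 FPKM in the PTZ libraries, and 13.1 and 10.6 FPKM in Q808-1 and Q808-2. The sum was again higher in Q808-1, and *Pf4* gave 7.13 and 4.47 FPKM of the Q808 sums. *Cd163*, *Lyve1*, *Ms4a7* and *Stab1* were also higher in Q808-1, while *Mrc1*, *F13a1* and *Cbr2* were higher in Q808-2. 5 of 6 tested rose in Q808 against PTZ, *Cd163* by 1.80 ± 0.53 and *Mrc1* by 1.77 ± 0.52 on the log2 scale (adjusted p of limma 0.952), and 3 of 6 in Q808 against Con. The means of *Cd163* and *Mrc1* over the 8 libraries were low, at 0.207 and 0.642 FPKM. The part of choroid plexus, vessel, macrophage or striatal tissue in the values of the 8 genes was not tested.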

How the data were processed

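Hippocampal mRNA of 8 rats was sequenced, 1 library per rat, and groups and replicate numbers were taken from the titles. The authors trimmed reads with Trimmomatic and deposited FPKM per gene, computed with Cufflinks per the methods. Their processing notes also name HISAT2, Bowtie2, SAMtools, StringTie, HTSeq and DESeq without versions, and the genome build of the files is not given in the sources used here. Symbols for 20633 genes came from the RefSeq table of GRCr8.

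The 15593 genes with a mean of at least 0.1 FPKM were tested on log2(FPKM + 0.1) by limma's empirical Bayes with a mean-variance trend, each comparison on its own groups, and p-values were adjusted by Benjamini-Hochberg over all of them. The pseudocount understates changes of low genes. Since each gene's values were whole multiples of a step, fragments were recovered for 15591 of 15593 genes (99.99%, tolerance 0.005 fragments) as the smallest whole numbers that fit, which gave 95% Poisson intervals that cover counting error only. P-values measure the spread between rats.

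All 8 genes are described, with genes called in each further list (at most 4 per list and comparison, otherwise the 2 highest), the 10 genes most like the mean of the 8, the gene most like each, and neighbours in the RefSeq table. The genes and lists were chosen with earlier results of these data known. *Itih2* and *Ly6c1* were on the lists but not used here, and a planned list gene is not reported here and was left out of every list value and covariate. The ependyma, dentate, pyramidal, oligodendrocyte, astrocyte and endothelium lists were also measured.

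The replicate numbers come from the titles, of different rats. Deviations of same-numbered Con. and PTZ libraries from their group means correlated at 0.309, 0.392 and 0.472. Con.-3 and PTZ-3 both had high striatum markers, so these correlations cannot tell a pairing from a shared tissue make-up. The numbers were used as a block in an alternative fit, which changed no call among the 7 genes there. Alternatives were other pseudocounts (1 and 0.01), filters, 1 fit of all groups, no trend, quantile and median ratio scaling, the replicate block, the striatum covariate, the 3 libraries left out, and each library left out in turn. Voom on recovered fragments was added after seeing the data. The fits were tested on simulated data. Software was R 4.3.3 with limma 3.58.1, and Python 3.11.15 with scipy 1.17.1, pandas 2.3.3, matplotlib 3.10.9 and numpy 2.4.6.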

Additional observations from a re-analysis of the deposited data

How the results depend on the processing

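With 2 or 3 rats a group, single libraries decide the counts of the 7 tested genes that were called. In PTZ against Con. 0 were called, 4 without Con.-3, PTZ-3 and Q808-1, where *Aldh1a2* (-1.31), *Lum* (-0.31), *Foxc1* (-0.0087) and *Slc47a1* (-0.996) turned below 0, and 0 to 1 with each library left out in turn (1 without PTZ-3, *Slc6a13*, where 1135 of 15593 genes were called). In Q808 against PTZ 1 was called, 0 over all genes with any value above 0, 3 with the replicate block (*Slc6a13*, *Aldh1a2* and *Slc47a1*, where 12.1% of all genes were called), 6 without the 3 libraries, and 0 to 2 with each library left out in turn: 0 without PTZ-2 or Q808-2 (149 and 1301 of all genes), and 2 without PTZ-3 or Q808-1 (1569 and 323 of all genes). Its sign turned for *Foxc1* with quantile normalization (-0.021), and for *Dcn* with median ratio scaling (-0.019) and with the block (-0.21). In Q808 against Con. 0 were called, 1 over all genes with any value above 0, 5 with the striatum covariate, 6 without the 3 libraries, and 0 to 2 with each library left out in turn (2 without Q808-1, where 351 of all genes were called). The block there turned *Slc22a6* (-0.29) and *Dcn* (-0.11). It drops Con.-3 or PTZ-3, which have no Q808 partner. Same-numbered deviations correlated at -0.439 and 0.416 with PTZ and at -0.463 and 0.661 with Con. The titles give these libraries only a shared number, and the correlations cannot tell a pairing from tissue make-up. The block changed no other call.

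Leaving out each library in turn, log2 differences that changed sign ran, in PTZ against Con., from -0.72 to 0.60 for *Aldh1a2*, -0.18 to 1.26 for *Dcn* and -0.48 to 0.95 for *Slc47a1*. In Q808 against PTZ they ran from -1.08 to 2.74 for *Slc22a6*, -0.049 to 2.20 for *Aldh1a2*, -0.49 to 1.30 for *Lum*, -0.99 to 1.14 for *Dcn* and -0.072 to 0.57 for *Foxc1*. In Q808 against Con. they ran from -1.53 to 2.29 for *Slc22a6* and -0.27 to 1.85 for *Dcn*. *Slc6a13* stayed between -1.36 and -0.42, 1.07 and 2.83, and 0.21 and 1.62 in the 3 comparisons over all alternatives, with adjusted p from 0.181, 0.295 and 0.417 upward. Genes called over the whole table were 395, 300 and 540, and over the alternatives 219 to 1530, 132 to 1894 and 279 to 1799. The cause of these changes was not tested.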

Other observations

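Some of the 8 genes have relatives as neighbours in the RefSeq table, whose levels were as follows. *Dcn* and *Lum* lie beside *Kera* and *Epyc*, proteoglycan genes of cornea and cartilage, and *Kera* was listed above 0 in 1 library (0.0356 FPKM in Con.-1) while *Epyc* ranged from 0 to 0.232 FPKM. *Ogn* lies beside *Omd* (at most 0.0521 FPKM) and *Aspn* (at most 0.0955 FPKM), so this cluster was near the limit of detection as a whole. *Slc22a8*, beside *Slc22a6*, was at 6.04, 5.71 and 4.01 FPKM in the Con. libraries, 3.02, 1.32 and 10.01 FPKM in the PTZ libraries, and 8.42 and 11.3 FPKM in the Q808 libraries. It thus kept a high level in Q808-1, where *Slc22a6* had its lowest value of 0.180 FPKM. *Slc47a2*, beside *Slc47a1*, ranged from 0.0827 to 0.287 FPKM, with its highest value in Con.-1. *Foxf2* (0.566 to 1.30 FPKM) and *Foxq1* (1.33 to 2.44 FPKM), the forkhead neighbours of *Foxc1*, were highest in PTZ-3, as *Foxc1* was.

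Markers of other cell types are given beside the 1.69%, 1.36% and 3.07% of all genes called higher in PTZ over Con., Q808 over PTZ and Q808 over Con. Of 9 endothelial markers 1 was called higher in PTZ against Con. (*Pecam1*, a junction protein, 0.63 ± 0.21 on the log2 scale), 0 for Q808 over PTZ and 3 for Q808 over Con., among them *Cldn5* (0.65 ± 0.25), a tight junction gene. Of 8 ependymal markers 1 was called, *Pltp*, a phospholipid transfer protein, higher in Q808 than in Con. (0.69 ± 0.18). Of 7 pyramidal neuron markers *Man1a1* was called lower in Q808 than in PTZ (-0.78 ± 0.26) and *Pou3f1* lower in Q808 than in Con. (-0.69 ± 0.26). Of the striatum (5), dentate granule cell (4), oligodendrocyte (8) and astrocyte (8) markers tested, limma called 0 in each of the 3 comparisons.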
